A study of Rattus with 4 samples.

Results

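The regions described here are antisense peaks without a sense partner, called lone antisense peaks below. They are stretches where immunoprecipitation of the RNA-binding protein RBM25 gave a called peak on the strand opposite to an annotated gene, while no peak was called on the gene's own strand at the same place. They were chosen by the strand, position and annotation of the calls in each deposited peak list: the annotation had to read antisense, and no peak of the opposite strand in the same list could share a 50-nt bin with it. The rule selected 807 of the 2696 peaks of IP replicate 1 and 1309 of the 8108 peaks of IP replicate 2, together 2116 of 10804 peaks. These made up 58.1% of the 1390 antisense peaks of replicate 1 (95% Wilson interval 55.4 to 60.6) and 32.8% of the 3994 antisense peaks of replicate 2 (31.3 to 34.2). Because the missing partner is what chose them, these shares are a description.

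The series holds 4 samples of H9C2, an established line of rat heart myoblasts: 2 immunoprecipitates of RBM25 and 2 inputs. Cells were cross-linked with UV light, lysed and treated with DNase and then with micrococcal nuclease, and RNA was sequenced from stranded, paired-end total RNA libraries. The design text speaks of H9C2 cells with raised RBM25 expression, but the labels of these 4 samples give no vector, antibody or separate culture, so the replicates may be technical. Peak lists of the 2 immunoprecipitates were analysed, peaks of the inputs were not used here, and the tags that the authors listed for each peak were not scaled for depth. Their definition was not given in the sources used here. From the values, which are whole for 51-nt peaks and can be fractional for longer ones, they were read as a mean number of reads per 50-nt bin.

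RBM25 is a nuclear RNA-binding protein that associates with the U1 snRNP, the particle that recognises 5′ splice sites, and it takes part in the choice of splice sites. RNA from the strand opposite to a gene can come from a natural antisense transcript, from a neighbouring gene that overlaps, or from divergent transcription at a promoter. Whether any of these, or something else, gave the peaks described here was not tested.

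The strand of these peaks follows from the annotation that chose them. In replicate 1, 713 lone antisense peaks lay in genes that also had a sense peak in either list, and 0 of them were on the strand of those sense peaks. In replicate 2 the count was 0 of 1027. These counts are fixed by the annotation and do not bear on the label. For the other 94 and 282 peaks, no sense peak of the gene was listed, and the strand of the gene rested on the annotation alone.

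Lone antisense peaks were weak. In replicate 1 they had a lowest value of 19 tags, a median of 22 and a highest value of 311, and in replicate 2 a lowest value of 20, a median of 23 and a highest value of 651. The lower and upper quartiles ran from 20 to 26 tags in replicate 1 and from 21 to 26 in replicate 2. The lowest values are the lowest of the lists themselves, so most lone antisense peaks sat just above the level at which a peak was called. Antisense peaks with a partner had medians of 27 and 29 tags, and sense peaks without a partner had 22 and 23, the level of the lone antisense peaks. Only 22 and 45 lone antisense peaks were longer than the 51 nt at which most peaks are listed.

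The share of antisense peaks that stood alone was highest among the lowest peaks. In replicate 1 it was 71.3% under 25 tags, 46.6% from 25 to under 35 tags, 32.6% from 35 to under 50 tags and 39.4% at 50 tags or more. In replicate 2 the same classes gave 53.5%, 23.5%, 12.9% and 11.5%. A lone peak was thus mostly a low peak, although a class of strong ones, described below, remained in each list.

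The strands were evenly used in replicate 1, with 390 lone antisense peaks on the plus strand and 417 on the minus strand. In replicate 2, 772 were on the plus strand and 537 on the minus strand, a plus share of 59.0% (56.3 to 61.6). All antisense peaks of that list together had a plus share of 54.6%. Among them, 35.4% of those on the plus strand and 29.6% of those on the minus strand stood alone. The lowest tag number called was 20 on either strand of replicate 2.

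At most places that held a lone antisense peak, the other replicate listed no sense peak, and at most of those it listed no peak on either strand. Where replicate 2 called the antisense strand again, it called both strands more often (255 places) than the antisense strand alone (151). Replicate 1, the shorter list, called both strands at 31 such places and the antisense strand alone at 149. In replicate 2, at the 807 lone antisense peaks of replicate 1, both strands were called at 255 (31.6%), the antisense strand alone at 151 (18.7%), the sense strand alone at 28 (3.47%) and neither strand at 373 (46.2%). In replicate 1, at the 1309 lone antisense peaks of replicate 2, both strands were called at 31 (2.37%), the antisense strand alone at 149 (11.4%), the sense strand alone at 20 (1.53%) and neither strand at 1109 (84.7%). A sense peak was thus listed at 283 of 807 places (35.1%, 31.9 to 38.4) in one direction and at 51 of 1309 (3.90%, 2.98 to 5.09) in the other. Over all peaks, 52.4% of replicate 1 and 17.4% of replicate 2 met a peak of the opposite strand in the other list. The lists differ in length, and the length of a list can follow sequencing depth, which is unknown here.

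**Figure D1:**
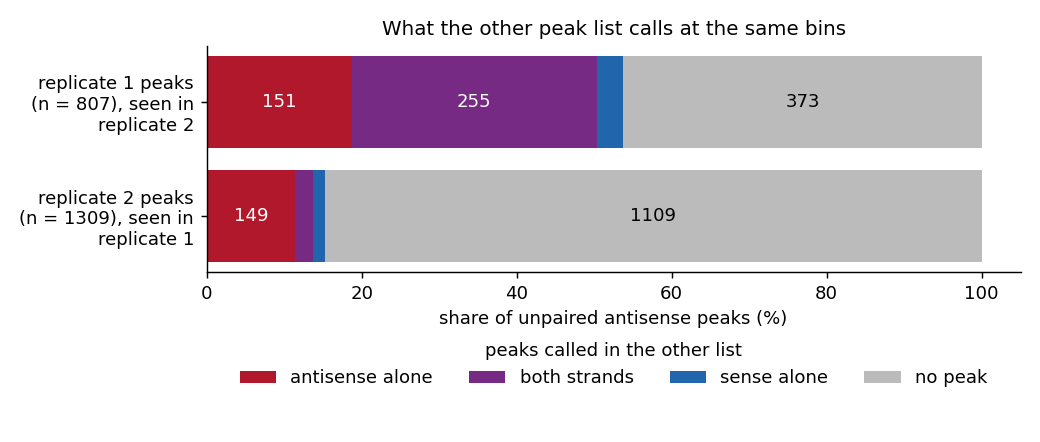
Stacked bars give the share (%) of lone antisense peaks of each replicate by what the other replicate's list holds in the same bins, with peak counts written in the larger segments. Of 807 peaks of replicate 1, 255 met peaks on both strands in replicate 2, whereas 1109 of 1309 peaks of replicate 2 met no peak in replicate 1.

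Where the other list did hold a sense peak, it was nearly always a peak of the same gene. This was so for all 283 places of replicate 1 and for 50 of the 51 of replicate 2. Those sense peaks covered exon and intron sequence at 210 and 31 places, exon alone at 67 and 17, and intron alone at 6 and 3.

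The strand that had been called alone in replicate 1 was also the stronger strand in replicate 2. At the 255 places with both strands called, replicate 2 had a median of 32 tags on the antisense strand and 27 on the sense strand. The antisense strand was higher at 200 places, the sense strand at 42, and 13 were equal, so the antisense strand led at 78.4% (73.0 to 83.04). At antisense peaks that had a partner in replicate 1, it led in replicate 2 at 57.6% (52.7 to 62.3), and at sense peaks without a partner at 39.7% (33.1 to 46.7). The lead was small in size: the median antisense share of the tags of both strands was 53.4% at lone antisense peaks, 50.9% at paired antisense peaks and 49.1% at lone sense peaks. In the other direction there were few places, and the antisense strand was higher in replicate 1 at 17 of 31 (54.8%, 37.8 to 70.8). This comparison was chosen after the data were seen and carries no test.

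**Figure D2:**
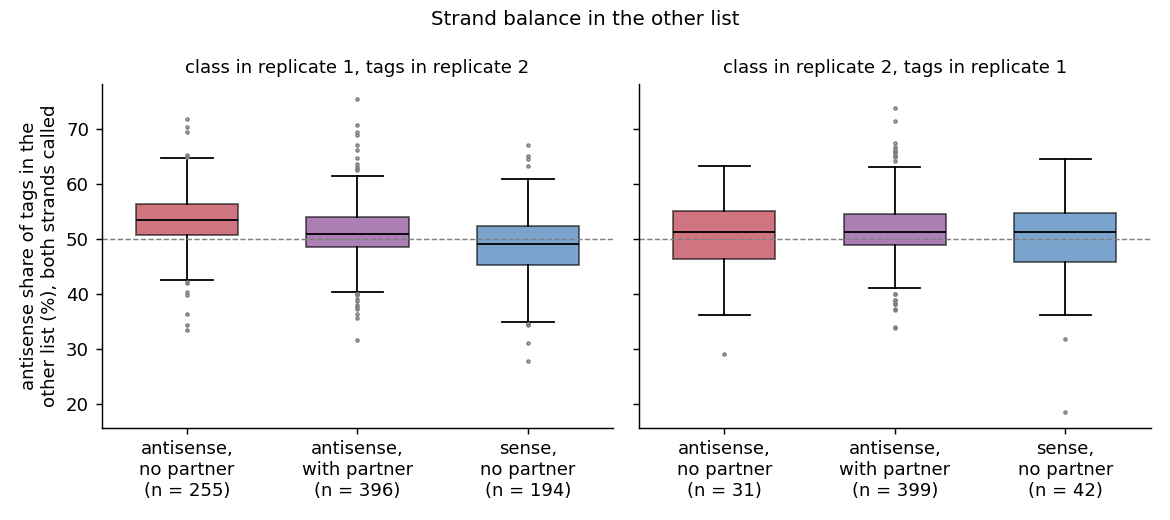
Boxes show, for places where the other list calls both strands, the antisense share (%) of the tags of both strands in that list, by the class of the peak in the first list; boxes span the quartiles, lines are medians, whiskers reach 1.5 times the box height and dots lie beyond. For classes set in replicate 1 the medians step down from 53.4% to 50.9% to 49.1%, and for classes set in replicate 2 they lie close together.

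Lone antisense peaks were found again less often than antisense peaks with a partner. A peak of the same strand overlapped 406 of the 807 peaks of replicate 1 in the other list (50.3%, 46.9 to 53.7), against 428 of 583 paired antisense peaks (73.4%). The difference was -23.1 percentage points (95% interval -28.0 to -18.0; two-sided Fisher's exact test, adjusted p = 8.3e-18 after Benjamini-Hochberg adjustment over 4 tests). Of the 1309 peaks of replicate 2, 180 were found again (13.8%, 12.0 to 15.7), against 653 of 2685 paired antisense peaks (24.3%), a difference of -10.6 points (-13.0 to -8.04; same exact test, adjusted p = 4.9e-15). The classes were not matched for tags. Under 25 tags lay 528 of 807 lone and 213 of 583 paired antisense peaks in replicate 1, and 854 of 1309 and 742 of 2685 in replicate 2. In replicate 2, lone and paired peaks recurred at close shares under 25 tags (9.25% against 10.1%) and from 25 to under 35 (22.8% against 26.3%). They lay further apart above that, and in every tag class of replicate 1. The size of the difference also moved with the choice of peaks. In replicate 2 it was -4.78 points among peaks of better p-value (exact test, adjusted p = 0.012), and in replicate 1 it was -50.1 points when a partner in either list counted, a choice that itself uses the other list. Over all peaks, 61% of replicate 1 and 20.3% of replicate 2 overlapped a peak of the same strand in the other list. The test compares peaks of 1 list with each other, not conditions, and peaks of one gene are not independent, so the p-values say nothing about the spread between cultures.

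Against sense peaks without a partner, no difference in recurrence was detected. Those peaks were found again at 317 of 594 (53.4%) in replicate 1 and 155 of 1031 (15.03%) in replicate 2. The lone antisense peaks differed from them by -3.06 points (-8.32 to 2.23; exact test, adjusted p = 0.37) and -1.28 points (-4.19 to 1.56; exact test, adjusted p = 0.41). In replicate 2 this value turned its sign among peaks of at least 30 tags, where 57 of 222 lone antisense peaks recurred and the difference was 10.5 points (exact test, adjusted p = 0.011).

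Recurrence differed by tag class, and the strongest lone antisense peaks were rarely found again. In replicate 1, 49.1% of the 528 peaks under 25 tags, 59.0% of the 210 from 25 to under 35, 44.2% of the 43 from 35 to under 50 and 15.4% of the 26 at 50 or more recurred. The paired antisense peaks of the same classes recurred at 66.7%, 78.8%, 78.7% and 65.0%. In replicate 2 the lone antisense peaks gave 9.25% of 854, 22.8% of 334, 24.1% of 83 and 13.2% of 38, and the paired ones 10.1%, 26.3%, 35.1% and 32.4%. At 50 tags or more, 4 of 26 and 5 of 38 lone antisense peaks recurred. Lone sense peaks of 50 tags or more were likewise seldom found again, at 21.1% and 13.2%.

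**Figure D3:**
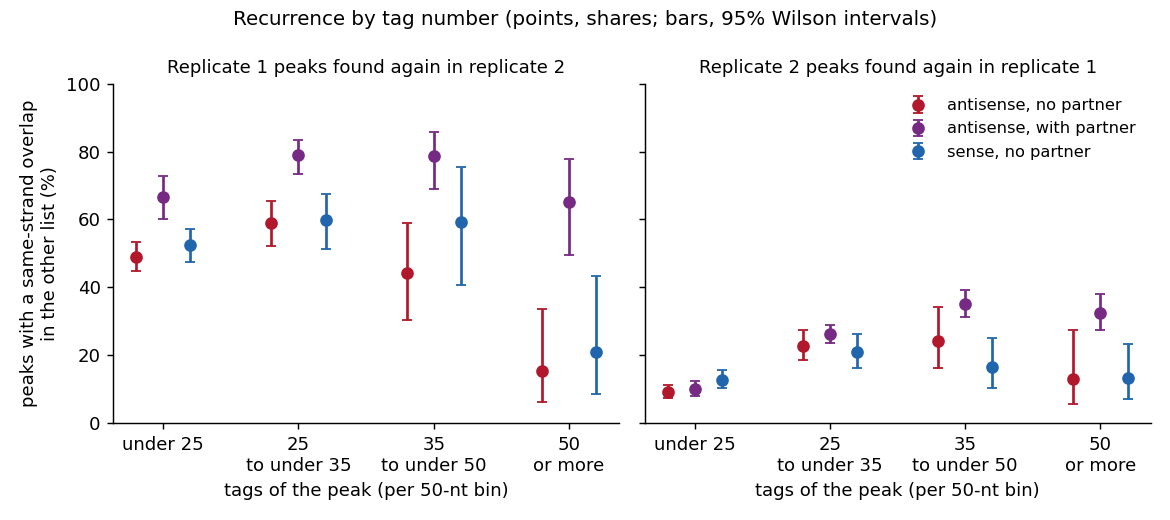
Points give the share (%) of peaks with a same-strand overlap in the other list, by tags per 50-nt bin, for lone antisense peaks, antisense peaks with a partner and lone sense peaks; bars are 95% Wilson intervals. Among peaks of 50 tags or more, lone antisense peaks recurred at 15.4% and 13.2% and paired antisense peaks at 65.0% and 32.4%.

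Some peaks that missed an overlap had a neighbour close by. Of the 401 lone antisense peaks of replicate 1 that were not found again, 46 had a same-strand peak of the other list within 100 nt, 74 within 200 nt and 113 within 500 nt. Of the 1129 of replicate 2, the counts were 42, 70 and 120. Such neighbours were not particular to lone peaks. In replicate 1, 15.5% of the 155 paired antisense peaks that were not found again had one within 100 nt and 45.2% within 500 nt, against 11.5% and 28.2% of the lone ones. In replicate 2 the shares were 3.30% and 12.4% of 2032 paired peaks, against 3.72% and 10.6%.

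The best supported lone antisense peaks were those that stood alone in both lists. Where genes are described below, a recurring peak means such a peak. That is narrower than the same-strand overlap with any peak counted above. In all, 148 peaks of replicate 1 (18.3%) overlapped 149 of replicate 2 (11.4%), in 136 genes. At 146 of them neither list held any opposite-strand peak in those bins. That count is nearly fixed by the rule, which each call had already met in its own list. Only calls of unequal length could differ, so it adds no support. The tags of these recurring peaks had a lowest value of 19, a median of 23 and a highest value of 49 in replicate 1, and 20, 25 and 59 in replicate 2. Replicate 2 had the higher number at 103 of them, on tags that are not scaled for depth. In 46 cases the nearest opposite-strand peak, of whichever gene, was more than 5 kb away in both lists, and in 4 cases one touched the peak in both.

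**Figure D4:**
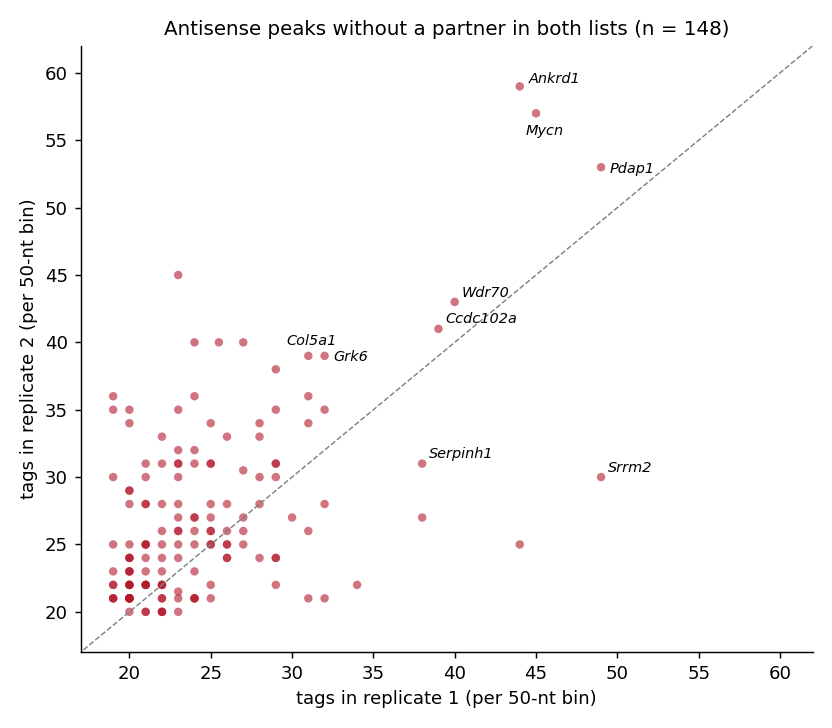
Each point is 1 of 148 replicate 1 peaks that stood alone on the antisense strand in both lists, with tags per 50-nt bin in replicate 1 (x) and replicate 2 (y); the dashed line marks equal tags. Most points lie between 19 and 35 tags, and Ankrd1, Mycn and Pdap1 lead in the combined rank.

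Pdap1, Mycn and Ankrd1 led the recurring peaks by the mean of their ranks in both lists. Pdap1, which encodes a phosphoprotein that binds PDGF, had a peak at chr12:9477400-9477450 on the minus strand, where replicate 1 listed 49 tags and replicate 2 listed 53. The nearest opposite-strand peak lay 6750 nt away in replicate 1 and 3450 nt away in replicate 2. Replicate 2 listed a further lone peak of Pdap1 with 48 tags at chr12:9479000-9479050. Pdap1 thus had signal of about the same size at 1 place in both lists and a second place in 1 list.

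Mycn, a transcription factor of the MYC family, had only lone antisense peaks. The peak at chr6:35721300-35721350 on the plus strand had 45 and 57 tags in the 2 lists, and the one at chr6:35719000-35719050 had 28 and 24. Replicate 1 listed another with 20 tags at chr6:35718700-35718750. The nearest opposite-strand peak was 284350 nt from the strongest peak in replicate 1 and 276450 nt in replicate 2, and no sense peak of Mycn was listed.

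Ankrd1 encodes a cardiac ankyrin repeat protein of muscle. Replicate 1 listed a longer peak at chr1:233823750-233823900 on the plus strand with 44 tags, and replicate 2 split the same stretch into peaks of 59 and 52 tags. Replicate 2 also listed 82 tags at chr1:233824300-233824350, where replicate 1 had no peak. The nearest opposite-strand peak of any gene was 744300 nt away in replicate 1 but 900 nt away in replicate 2. A weaker lone peak of replicate 1, with 22 tags at chr1:233822700-233822750, met 24 antisense and 31 sense tags in replicate 2. For Ankrd1 the absence of nearby opposite-strand peaks held in replicate 1 and not in replicate 2.

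Wdr70, Ccdc102a and Grk6 followed. Wdr70, a WD-repeat protein, had 40 and 43 tags at chr2:57186000-57186050 on the plus strand, where an opposite-strand peak touched it in replicate 1 and lay 4900 nt away in replicate 2, and 25 and 31 tags at chr2:57174300-57174350. Ccdc102a, a coiled-coil protein, had 39 and 41 tags at chr19:10109300-10109350 on the minus strand, again with a touching opposite-strand peak in replicate 1 and a gap of 1800 nt in replicate 2. Grk6, a kinase of G protein-coupled receptors, had 32 and 39 tags at chr17:9192550-9192600 and 29 and 31 tags at chr17:9188750-9188800, both on the plus strand. Wdr70 and Grk6 thus had a pair of recurring places each.

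Col5a1, a fibrillar collagen chain, had 31 and 39 tags at chr3:11333650-11333700 on the minus strand. Unc5d, a netrin receptor, had 32 and 35 tags at chr16:62946700-62946750 on the minus strand, and these were the only peaks of Unc5d in either list. Ahnak, a very large scaffold protein, had 31 and 36 tags at chr1:205903400-205903450 and 27 and 40 at chr1:205901350-205901400, on the minus strand. H3f3b, which encodes histone H3.3, had 29 and 38 tags at chr10:101257900-101257950 on the plus strand, 100 nt from an opposite-strand peak in both lists. Most of these leading peaks had more tags in replicate 2, as did the recurring peaks in general.

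Lone antisense peaks often lay near an opposite-strand peak without sharing a bin. The gap to the nearest opposite-strand peak had a median of 8100 nt in replicate 1 (quartiles 550 and 246050) and 2200 nt in replicate 2 (350 and 28250). Peaks that touched an opposite-strand peak numbered 55 (6.82%) and 63 (4.81%). Within 500 nt there were 201 (24.9%) and 388 (29.6%), within 5 kb 356 (44.1%) and 788 (60.2%), and beyond 100 kb 247 (30.6%) and 208 (15.9%). The gaps were shorter in the longer list.

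Just inside the rule, the touching peaks had medians of 25 and 26 tags, with 23 and 24.5 tags at the peaks they touched. Of the 583 and 2685 antisense peaks with a partner, 568 and 2557 shared exactly 1 bin with it. They had medians of 27 and 29 tags and partner medians of 25 and 27. Most peaks are 1 bin long, so these are nearly all paired antisense peaks and not near misses of the rule. Of the touching peaks, 24 and 14 were found again in the other list. The touching peaks and the paired peaks were of similar strength, with medians a few tags apart.

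The nearest opposite-strand peak of the same gene lay mostly on one side. Taking the direction of the gene, the lone antisense peak lay on the 3′ side of that sense peak for 317 of 501 peaks in replicate 1 (63.3%, 59.0 to 67.4) and 630 of 983 in replicate 2 (64.1%, 61.0 to 67.0). Among touching peaks this was so for 50 of 55 (90.9%) and 56 of 62 (90.3%). Within 500 nt the share was 71.6% and 67.4%, and beyond 5 kb it was 73 of 146 and 114 of 204 peaks, so the asymmetry was strongest at close range. Sense peaks without a partner leaned the other way, lying on the 3′ side of their nearest antisense peak for 31.6% and 33.8%. Beyond 5 kb they still did, at 38.5% (29.9 to 47.9) and 36.5% (28.6 to 45.2). Lone antisense peaks gave 50% and 55.9% at that range. Some of these sense and antisense peaks are the same pairs seen from the other strand. For such pairs the opposite lean is fixed, so the contrast is not separate support. Genes on the plus and minus strands gave 61.8% and 64.9% in replicate 1, and 59.3% and 67.4% in replicate 2. The measure was chosen after the data were seen and carries no test.

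**Figure D5:**
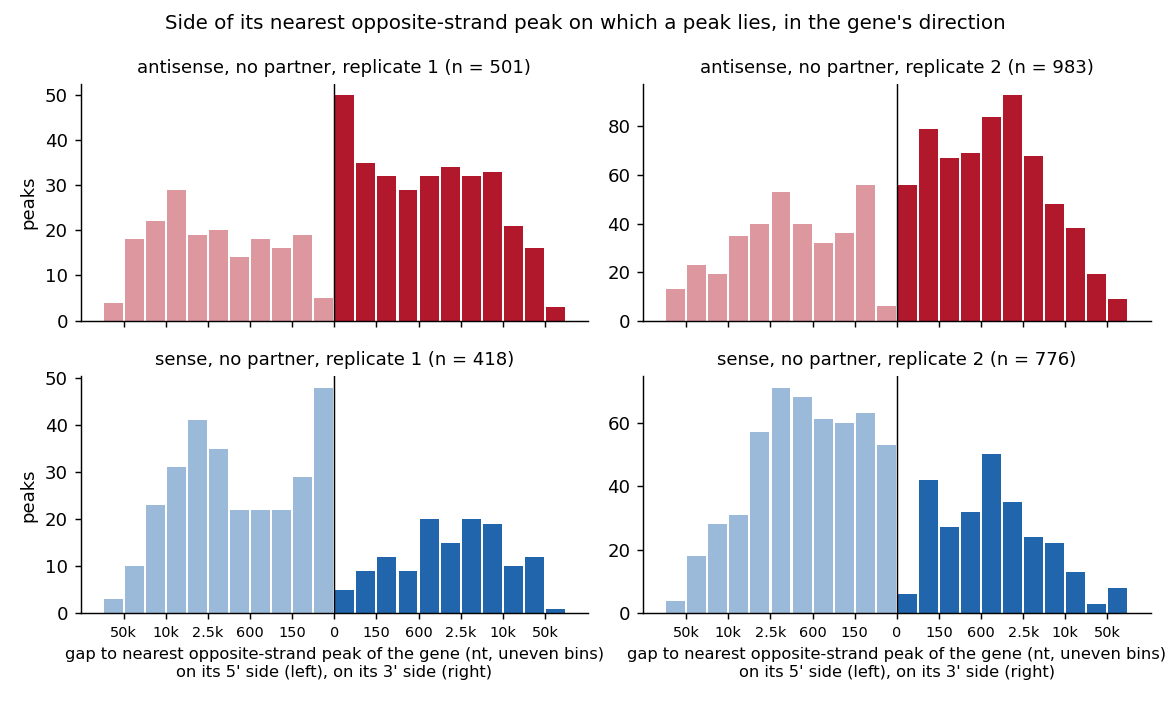
Histograms count lone antisense peaks (upper panels) and lone sense peaks (lower panels) by the gap in nt, in uneven bins, to the nearest opposite-strand peak of the same gene, on the 3′ side of that peak (right) or its 5′ side (left) in the direction of the gene. Of the touching antisense peaks, 50 of 55 and 56 of 62 lie on the 3′ side. The lone sense peaks show the opposite asymmetry, which is fixed where the same pair is counted from either strand.

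Lone antisense peaks were spread over many genes. They fell in 567 of the 922 genes with a peak in replicate 1 (61.5% of those genes) and in 872 of 1819 in replicate 2 (47.9%), in 1117 genes over both lists and in 322 genes in both. In 422 and 614 genes there was 1 such peak, and in 20 and 38 genes there were 4 or more. A sense peak elsewhere in the gene was listed in the same list for 308 genes (54.3%) and 596 genes (68.3%). Within 1000 nt of another lone antisense peak lay 106 peaks (13.1%) and 187 peaks (14.3%).

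Ahnak, Ahnak2, Hip1r, Macf1, Plec and Srrm2 had 6 each in replicate 1. In replicate 2, Plec, the cytoskeletal linker plectin, had 11, Hspg2, the matrix proteoglycan perlecan, had 10, Ahnak and Flna, the actin cross-linker filamin A, had 8 each, and Chd3, a chromatin remodeller, had 7. Lrp1, Macf1 and Tnrc18 had 7 as well. Of these 11 genes, Plec, Hspg2, Ahnak2 and Flna had no lone antisense peak that overlapped one of the other list, while Ahnak, Hip1r, Macf1, Srrm2, Chd3, Lrp1 and Tnrc18 had at least 1. Gene length was not taken into account.

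In Plec, replicate 1 listed 108 tags at chr7:107898500-107898550 and 53 at chr7:107897350-107897450 on the plus strand. Replicate 2 listed 23 tags at chr7:107898600-107898650 and 50 at chr7:107897550-107897600. The calls of Plec thus lay side by side in the lists without sharing a bin. In Ahnak2 the strongest were 55 and 52 tags in replicate 1, against 20 and 20 in replicate 2 at other places.

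Hip1r, an adaptor between clathrin coats and actin, showed the reverse case. Its replicate 1 peak at chr12:32592650-32592700 on the plus strand had 33 tags, and replicate 2 listed 65 antisense and 51 sense tags there. Its peak at chr12:32596750-32596800 had 20 tags, against 34 antisense and 47 sense tags in replicate 2. Of the 6 lone peaks of Hip1r in replicate 1, 1 remained without a partner in both lists, with 32 and 28 tags at chr12:32595550-32595600.

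Genes in which every peak of both lists was a lone antisense peak numbered 293, and 37 of these had peaks in both lists. Besides Mycn and Unc5d, examples at identical bins, chosen after their values were seen, were Hnrnpul1 with 24 and 36 tags, Ccnd2 (cyclin D2) with 20 and 24, Mcl1 (an anti-apoptotic BCL2 relative) with 23 and 21, Prpf19 (a core splicing factor) with 20 and 23, Bclaf1 with 26 and 25 and Rps7 with 26 and 24. Tm9sf3, a transmembrane protein, had 42 tags in replicate 1 at chr1:240084600-240084650 and 57 in replicate 2 at chr1:240075050-240075100, which do not overlap. The strongest such genes seen in only 1 list were Rplp1, a ribosomal stalk protein, with 119 tags, Mphosph9 with 51, 52 and 51 and Twsg1 with 37 in replicate 1. In replicate 2 they were Dnajb6, a co-chaperone, with 77 tags, Rpl11 with 70 and Ctsd (cathepsin D) with 41.

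About the same share of genes overlapped another annotated gene as among all genes with a peak. In the rat annotation GRCr8, used only for names and neighbours, 513 of 1094 matched genes with a lone antisense peak overlapped another gene (46.9%, 44.0 to 49.9), against 878 of all 1847 matched genes with a peak (47.5%, 45.3 to 49.8). Genes with a recurring peak gave 68 of 132 (51.5%, 43.1 to 59.9), and genes with lone antisense peaks only gave 117 of 283 (41.3%, 35.8 to 47.2). The strand of the overlapping gene was not given in the table, and whether the peak lay inside it was not tested.

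Lone antisense peaks with no counterpart of either strand in the other list reached the highest tag numbers. The strongest in replicate 1 were Rn28s, a 28S ribosomal RNA, with 311 tags on an unplaced scaffold, Ptms (parathymosin) with 206 tags at chr4:157726150-157726200 and Hnrnpa2b1, an hnRNP protein, with 134 tags at chr4:80542050-80542100. Those in replicate 2 were Col1a1, the main collagen chain of the fibroblast matrix, with 651 tags at chr10:79896450-79896500, Rn45s, the ribosomal RNA precursor, with 145 tags and Smarcc2, a BAF complex subunit, with 106.5 tags at chr7:904100-904200. For Hnrnpa2b1, replicate 2 listed 66 tags at chr4:80542550-80542600, which shares no bin with it. Ribosomal, mitochondrial and scaffold places held 9 and 14 lone antisense peaks in all.

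The lone peaks of replicate 1 that met the strongest sense peaks in replicate 2 lay in Fmn1, Calm2, Srrt, Luc7l3 and Slc12a4. Fmn1, a formin that nucleates actin, had 19 tags at chr3:100414200-100414250, and replicate 2 listed 226 antisense and 261 sense tags. Calm2 (calmodulin) had 26.5 tags against 44 antisense and 84 sense tags, and Srrt, an adaptor of the nuclear cap-binding complex, had 31 against 78.7 and 79.7. Luc7l3, a LUC7-like factor of the U1 snRNP, had 65 tags at chr10:79247300-79247350 against 72 and 73, and Slc12a4, a potassium chloride cotransporter, had 54 against 52 and 65. In these genes the place was called on both strands once the other list was read. The strands were near equal in Srrt and Luc7l3, and the sense strand led in Fmn1, Calm2 and Slc12a4. These genes were chosen for the strength of that sense peak, which favours a sense lead. Over all 255 places with both strands called in replicate 2, the antisense strand was higher at 200 and the sense strand at 42.

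In the other direction, Ranbp1, a partner of the RAN GTPase, had 42 tags in replicate 2 and 37 antisense and 39 sense tags in replicate 1. P4ha3, a collagen prolyl hydroxylase, had 28 tags against 39 and 38, Hip1r had 23.5 against 21 and 37, and Slc12a7 had 31 against 34 and 35.

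Splicing factor genes held lone antisense peaks in 29 of the 53 with a peak in replicate 1 and in 37 of 71 in replicate 2, close to the shares over all genes given above (61.5% and 47.9%). The strongest was the peak of 134 tags in Hnrnpa2b1 in replicate 1. Hnrnpu had peaks of 78 and 58 tags in replicate 1, and Snrnp70, the U1 70K protein, had 74 tags in replicate 2. None of these peaks was found again, and 4 splicing factor genes had a recurring peak, one that stood alone in both lists. Over all genes, 136 of the 1117 with a lone antisense peak in either list had a recurring one. For single gene lists the number of genes with a lone peak in either list was not counted, so such counts are not shares. One of the splicing factor genes with a recurring peak was Srrm2, a nuclear speckle scaffold. It had 49 and 30 tags at chr10:12830850-12830900 on the minus strand and was chosen after its values were seen.

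Rbm25 itself had 3 lone antisense peaks, all in replicate 1 and on the minus strand. The strongest had 73 tags at chr6:103304650-103304700, where replicate 2 listed 24.5 antisense tags and no sense peak. The peak at chr6:103301450-103301550 had 32.5 tags, against 46 antisense and 39.3 sense tags in replicate 2, and that at chr6:103304800-103304850 had 22 tags against 34 and 23.3. All 3 places were thus called again on the antisense strand in replicate 2, and at 2 of them the sense strand was called too.

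Matrix and collagen genes held a lone antisense peak in 16 of 20 (80%) and 25 of 29 (86.2%) genes with a peak. Cytoskeletal and muscle genes held one in 22 of 29 (75.9%) and 25 of 36 (69.4%). Over all genes with a peak the shares were 61.5% and 47.9%. Gene length and the number of peaks per gene were not taken into account. Besides Col1a1 and Plec, Sparc, a matrix glycoprotein, had 55 tags and Col5a2 had 42 tags in replicate 2, and Ccn1 had 40 tags in replicate 1. At that place in Col5a2, replicate 1 listed a sense peak of 31 tags and no antisense peak. Acta2 (smooth muscle actin) had 67 tags in replicate 2, and Flnc (filamin C) 63 in replicate 1. Cald1 (caldesmon) had 24 and 31 tags at the same bins and a further 52 and 49.5 tags at chr4:63425550-63425650 and chr4:63425750-63425850, which do not overlap. A recurring peak was present in 3 matrix genes and 8 cytoskeletal genes. Over all genes, 136 of the 1117 with a lone antisense peak in either list had one.

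Ribosomal protein genes held them in 4 of 17 (23.5%) and 17 of 44 (38.6%) genes with a peak, below the 61.5% and 47.9% over all genes. Rplp1, Rpl11, Rpl14 (56 tags in replicate 2) and Rpl23a (34) were the strongest, and 1 gene had a recurring peak (136 of 1117 over all genes with a lone antisense peak). Translation factor genes held them in 11 of 18 (61.1%) and 13 of 29 (44.8%), close to the 61.5% and 47.9%. A recurring peak was present in 7 translation factor genes, a count to read beside the same 136 of 1117. Among these 7 genes, Eif4g2 had 29 and 31 tags and Eif5 25 and 31, while Eif4g1 had 25 in both. A second peak of Eif5, with 44 tags in replicate 1, met 27 antisense and 41 sense tags in replicate 2. Eif3a had 45 and 44 tags at separate places in replicate 2 only.

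Chaperone genes held lone antisense peaks in 11 of 16 (68.8%) and 8 of 23 (34.8%) genes, against 61.5% and 47.9% over all genes. A recurring peak was present in 2 chaperone genes, beside 136 of the 1117 genes with a lone antisense peak in either list. Hsp90aa1 had 22 and 26 tags at the same bins and a peak of 56 tags in replicate 2 alone. Xbp1, the transcription factor of the unfolded protein response, had 29 tags in replicate 1 against 38 antisense and 23 sense tags in replicate 2. Hspd1 and Hspa5 had 20 and 22 tags in replicate 1, and in both genes replicate 2 called both strands there.

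Chromatin genes held them in 14 of 20 (70%) and 15 of 33 (45.5%) genes, against 61.5% and 47.9% over all genes. A recurring peak was present in 5 chromatin genes, beside 136 of the 1117 genes with a lone antisense peak in either list. Hdac5, a histone deacetylase, had 52 tags in replicate 1 where replicate 2 listed only a sense peak of 26.5 tags. Brd2, a bromodomain protein, had 25.5 and 40 tags, with a sense peak of 31 tags in replicate 2 that overlapped the longer call of replicate 1. Chd3 had 20 and 21 tags at the same bins.

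The title of the series speaks of immune and inflammatory genes. Lone antisense peaks were listed in 2 of 4 such genes with a peak in replicate 1 and 3 of 9 in replicate 2. Over all genes with a peak the shares were 61.5% and 47.9%. A recurring peak was present in 0 of these genes, and in 136 of all 1117 genes with a lone antisense peak. So few genes cannot show a difference from the rest. Csf1, a macrophage growth factor, had 25 tags in replicate 1 at chr2:195388750-195388800 and 23 in replicate 2 at chr2:195384450-195384500. Tgfbr2 had 23 and 21 tags and Il6st 22 in replicate 2, and Stat6 had 19 in replicate 1. All were near the lowest tag numbers called, as were most lone antisense peaks. Of the other genes connected with the study or with RBM25, Coro6 had 20 tags in replicate 2, Bin1 had 19 in replicate 1, and Bcl2l1 and Slc38a9 had none.

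Mitochondrially encoded genes held a lone antisense peak in 1 of 3 and 2 of 6 genes, too few to set against the share over all genes. COX1 had 19 and 23 tags at the same bins and COX2 had 21 in replicate 2. Peaks say little about cell identity. Of 10 muscle lineage markers, 1 had any peak, and Tnnt2 (cardiac troponin T) had a lone antisense peak of 19 tags in replicate 1. Of 16 markers of other cell types, 2 and 3 had a peak, of which 2 and 2 held a lone antisense one. Smtn (smoothelin) had 22 and 24 tags at the same bins, and its peaks of 41 and 34 tags in replicate 1 met both strands in replicate 2. Krt8 had 21 tags in replicate 1 and Pdgfrb 21 in replicate 2.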

How the data were processed

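RBM25 immunoprecipitates of H9C2 cells were analysed as 2 peak lists, 1 per replicate. Reads were processed with HISAT2 and the rat build mRatBN7.2, per the submitters' processing notes, while the peak caller was not given in the sources used here. Tags as deposited were read from their values as a coverage signal per 50-nt bin, and the authors applied no scaling that the columns name. Each peak carries a deposited p-value, which fell with tag number, and no background sample is named. Library depth is unknown, and intervals cover counting error only.

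Peaks were classed by strand and shared bins, matched between lists on strand and at least 1 bin, and compared with Fisher's exact test (scipy 1.17.1). Code was tested on simulated data. GRCr8 gave names and neighbours for 1847 of 1914 genes. The members and the 12 gene lists were chosen with earlier results of these data known. Genes named were the 10 with the best mean rank of recurring peaks, the 5 with most peaks per list, up to 4 per gene list, the 5 strongest per list with lone antisense peaks only, the 3 strongest per list without a counterpart, the 5 per list with the strongest sense peak in the other list, and the genes connected with the study; unnamed identifiers were passed over, and 1 gene the rule names is not reported here. Partner window, partner list, p-value, tag minimum, locus, length, overlap and peaks per gene were varied.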

Additional observations from a re-analysis of the deposited data

How the results depend on the processing

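Of 104 alternatives of the results of single lists, 82 left the value within its interval or on its side of the threshold, among them all 11 for each comparison with paired antisense peaks. The size of that comparison moved all the same. In replicate 1 it went from -23.1 to -50.1 points with partners from either list. That choice uses the list in which recurrence was scored, and moves places called there on both strands to the paired class. The wider gap, and its place among the 11, are thus partly fixed in advance. The same limit holds for the recurrence shares under that choice, given below. In replicate 2 the difference went from -10.6 to -4.78 points at better p-values and -7.47 points at 30 tags or more (exact tests, adjusted p = 0.012 and 0.039). The share without a partner was 54.1% in replicate 1 and 31.2% in replicate 2 when 1 further bin counted, 44.2% and 23.4% within 500 nt, 61.3% and 38.5% among peaks of better p-value, and 34.2% and 14.9% at 30 tags or more. It was 37.7% in replicate 1 when a partner in either list counted and 29.7% in replicate 2 with 1 peak per gene. Recurrence was 28.8% and 11.8% with partners from either list, 45.5% in replicate 1 at better p-values, and 45.2% and 25.7% at 30 tags or more. A sense peak in the other list was met by 27.6% in replicate 1 at better p-values, 29.6% and 6.76% at 30 tags or more, 40.3% and 6.26% when 1 further bin counted as shared, and 2.87% in replicate 2 with 1 peak per gene. Against lone sense peaks, the recurrence difference of replicate 2 turned to 10.5 points at 30 tags or more. The cause was not tested. With either list left out, the pooled share ran from 32.8% to 58.1%, recurrence from 13.8% to 50.3% and sense calls from 3.90% to 35.1%. No paired analysis was possible because each immunoprecipitate has 1 peak list and no input list was used. Reading antisense by majority was not run, since the annotation covers the whole peak in every case. Some of the 104 alternatives could hardly move a value. With partners not annotated antisense, the same 807 of 1390 and 1309 of 3994 antisense peaks stood alone. Restricting to 51-nt peaks kept 785 of 807 and 1264 of 1309 lone antisense peaks. The count of 82 includes such alternatives. Unknown depth limits every comparison between lists.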
